A study of Mus musculus with 40 samples.

Results

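Leukaemia inhibitory factor (LIF) was withdrawn from 4 mouse embryonic stem (ES) cell lines, and each line was compared with itself in complete medium. The comparison used 8 of the 40 arrays of the series, 1 array per line and medium, and the lines served as the replicates. MG1.19 is a line of 129Sv background that expresses the polyoma large T protein and was taken at passage 5. Nanog episomal is a clone of 129Sv background that carries a Nanog expression vector outside the chromosomes, and MG1.19 is its parent per the study's methods. ES 129.3 is a line of 129SvEv-Tac background taken at passage 12. Nanog/EF1#6 is a clone of 129SvEv-Tac background with Nanog integrated under the EF1 promoter. ES 129.3 is set beside it here by strain alone, since the methods and the deposited design text name different parents for the clones, and neither names ES 129.3. The LIF+ cells grew in complete medium, the LIF- cells in the same medium without LIF, and the LIF+RA cells in complete medium with 1 µM all-trans retinoic acid (RA). All cells had first been passaged 2 times on gelatin, which removes feeder cells, and were then kept for 3 days in their medium. Each Nanog line is 1 clone, and the strain and the day of array image extraction go together, although both media are present on each day. The 4 arrays of MG1.19 and ES 129.3 had also been used in an earlier series. RNA of the cells, amplified and labelled with Cy3, was hybridised with a Cy5-labelled target made from a universal mouse reference RNA on each array without a dye swap, so a level is given here as log2(Cy3/Cy5) and can be compared between arrays for 1 gene but not between genes.

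LIF binds the LIF receptor and gp130 on the cell surface, and the Janus kinases attached to these receptors phosphorylate STAT3, which enters the nucleus and switches on its target genes. Mouse ES cells depend on this signal in serum to renew themselves. STAT3 acts through Klf4, Tfcp2l1, Gbx2 and other genes of the naive state, and Socs3 is its own feedback inhibitor. Cells that lose the signal leave the naive state and switch on genes of the post-implantation epiblast, of which Fgf5 is the classical marker.

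Median Cy3 signals on the 8 arrays were 531 to 662 against local backgrounds of 375 to 387, and between 2.18 and 4.97% of gene probes were dimmer than 95% of the negative control spots, a limit of 400 to 433. ES cell transcripts were present on every array, with Pou5f1 levels of 2.14 to 2.87 and Sox2 levels of 4.92 to 5.95. Of 12 fibroblast and feeder cell markers 10 were measured, none passed the test, and their differences between the media were -0.09 to 0.37 on the log2 scale. Before withdrawal, Nanog levels were 1.91 in MG1.19, 1.28 in Nanog episomal, 1.61 in ES 129.3 and 2.48 in Nanog/EF1#6. The Nanog episomal array thus had a lower Nanog level than the MG1.19 array. The sources used here do not say whether the probe covers the part of Nanog that the vectors carry, so these levels do not check the labels of the clones. The study measured Nanog in the clones by PCR, which is not used here.

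The promoters of Socs3 and Icam1, both listed as STAT3 targets, are shown. Both genes fell at least 2-fold in every line, and both promoters hold a match to the palindrome that STAT proteins bind. Arid5b and Urah, which are not listed as STAT3 targets, met both conditions as well and are not shown. The windows run from 250 bases before to 50 bases after the transcript start in RefSeq, build GRCm38.p6, and lie at chr11:117969317-117969616 on the minus strand for Socs3 and at chr9:21015690-21015989 on the plus strand for Icam1. Capitals mark the match to TTCNNNGAA, a palindrome that reads alike on both strands, and N is any base.
Socs3: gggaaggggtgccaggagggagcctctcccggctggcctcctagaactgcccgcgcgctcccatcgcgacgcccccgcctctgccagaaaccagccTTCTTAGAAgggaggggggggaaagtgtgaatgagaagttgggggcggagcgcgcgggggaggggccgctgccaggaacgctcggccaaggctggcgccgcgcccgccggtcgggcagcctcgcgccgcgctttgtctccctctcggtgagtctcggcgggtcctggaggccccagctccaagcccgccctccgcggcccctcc
Icam1: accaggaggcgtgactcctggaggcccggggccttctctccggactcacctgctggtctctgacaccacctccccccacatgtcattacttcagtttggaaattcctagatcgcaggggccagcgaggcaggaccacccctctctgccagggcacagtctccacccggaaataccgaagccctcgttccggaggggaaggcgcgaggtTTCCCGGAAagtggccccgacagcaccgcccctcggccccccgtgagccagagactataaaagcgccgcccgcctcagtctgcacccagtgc
The match in Socs3, TTCTTAGAA, lies at positions -154 to -146 from the transcript start, and that in Icam1, TTCCCGGAA, at positions -42 to -34. The motif was present in the promoters of 4 of 17 listed STAT3 targets (23.5%), of 10 of 78 named genes that fell (12.8%), of 2 of 29 that rose (6.9%) and of 965 of all 10848 tested genes with a promoter entry (8.9%). The stricter form TTCCNGGAA, each match of which is also a match of the first form, was found in 2 of the 17 targets (11.8%), in 3 of the 78 (3.85%), in none of the 29 and in 1.41% of all tested genes. In all 32851 promoter windows of the table the shares were 8.3% and 1.15%. Among listed targets that fell, only Socs3 and Icam1 held a match to TTCNNNGAA, and none was found for Klf4, Tfcp2l1, Gbx2, Klf5 and Pim3. The other matches of listed targets lay in genes that were not called. A match describes the letters of the window and is no measure of binding.

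Of 37591 features tested, 108 fell without LIF (0.287%) and 46 rose (0.122%), which together are 0.41%. At an unadjusted p under 0.05, 2331 were lower (6.2%) and 3029 higher (8.06%). A feature is a gene, or a probe where no gene name was found, and it was called with limma at an adjusted p of at most 0.05 and a mean change of at least 1.5-fold over the 4 lines, with the line as a term of the model. Among those called, 86 that fell and 36 that rose have a gene name. All of the 154 changed in the same direction in all 4 lines, and the median change was -0.98 on the log2 scale for those that fell and 0.85 for those that rose. The mean change was more than 2-fold in 47 and 16 of them, and more than 4-fold in 7 and 2. The levels of the 4 LIF+ and the 4 LIF- arrays did not overlap for 52 of the 108 and 20 of the 46. Over all features, called or not, 767 were lower without overlap (2.04%) and 710 were higher (1.89%).

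The calls rested most on 2 of the lines. Without MG1.19 or without Nanog/EF1#6, limma called 0 features, with 3497 and 4166 at an unadjusted p under 0.05. Without Nanog episomal it called 63 lower and 19 higher, and without ES 129.3 it called 143 lower and 203 higher. Within the 2 lines of 129Sv and within the 2 lines of 129SvEv-Tac, each extracted on 1 day, limma also called 0 features, with 4132 and 3185 at an unadjusted p under 0.05. All 154 features kept their direction in each of these subsets. This was fixed in advance, since each of them had changed in the same direction in all 4 lines. Arrays of the same medium are separate lines and not repeats of 1 line, so the p-values weigh the mean change against its spread over the lines. With 1 array per line and medium, that spread also holds the noise of the arrays.

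The background correction also decided calls. Without background subtraction Socs3 (-2.05, adjusted p = 0.0581, limma) and Klf4 (-2.41, adjusted p = 0.0854, limma) were not called, and of 29 called genes named by the rule for named genes 24 lost their call. With the processed signals of the scanner software and with the authors' table, the same 7 genes lost their call, Fgf5, Nr0b1, Khdc3, Fst, Prom1, Tmem200a and Tnfrsf19.

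Counted without a test, 20 features were at least 2-fold lower in every line (0.0532%) and 10 were at least 2-fold higher (0.0266%). The 20 were Klf4, Mymx, Socs3, Nr0b1, Cdyl2, Tfcp2l1, Lrrc34, Myo1f, Khdc3, Tcl1, Spp1, Hmces, Phf11, Arid5b, Fblim1, Icam1, Manba, Urah, Itgb7 and Mylpf. Among the 10 were Fgf5, Fst, Cxcl12, Prom1, Map3k15, Mycl, Amot, Msx1 and Meis2. Amot, a binding partner of Yap, was not called, with a mean difference of 1.56 and an adjusted p of 0.0572 in limma. At least 1.5-fold in every line, 106 features were lower (0.282%) and 66 were higher (0.176%).

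Klf4, a zinc finger factor of the naive state, showed the largest fall of all features. With LIF its levels were 1.97 in MG1.19, 2.26 in Nanog episomal, 0.73 in ES 129.3 and 2.25 in Nanog/EF1#6, and without LIF they were -1.23, -0.54, -1.44 and -0.46 in the same order. All 4 LIF+ arrays lay above all 4 LIF- arrays, and ES 129.3 was the lowest line in both media. Klf4 fell by 2.72 ± 0.16 (moderated SE of limma, n = 4 lines) on the log2 scale, a 6.59-fold change with an adjusted p of 0.0153 in limma. Its SD over the 4 lines was 0.42. Each SE given here is this moderated SE, for which limma pulls the variance of a feature toward a common value.

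Socs3, the inhibitor that STAT3 induces against its own pathway, fell to a similar degree. Its levels with LIF were 1.04, 0.66, 0.42 and 0.69 in MG1.19, Nanog episomal, ES 129.3 and Nanog/EF1#6, and without LIF they were -1.81, -1.99, -1.64 and -2.25. The groups were more than 2 log2 units apart at their nearest points, and the lines differed less from each other than for Klf4. The mean fall was 6.15-fold with an SE of 0.15 on the log2 scale (adjusted p = 0.0153, limma). The palindrome in its promoter is the one shown above.

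Tfcp2l1, a factor that carries much of the STAT3 effect on self-renewal, fell 4.4-fold. Its levels were 2.99, 3.03, 2.37 and 3.51 with LIF and 0.61, 0.74, 0.38 and 1.61 without LIF, in the same order of lines. The groups did not overlap, and Nanog/EF1#6 was the highest line in both media. The adjusted p of 0.00945 in limma is the smallest of any feature and is shared by several of them.

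**Figure D1:**
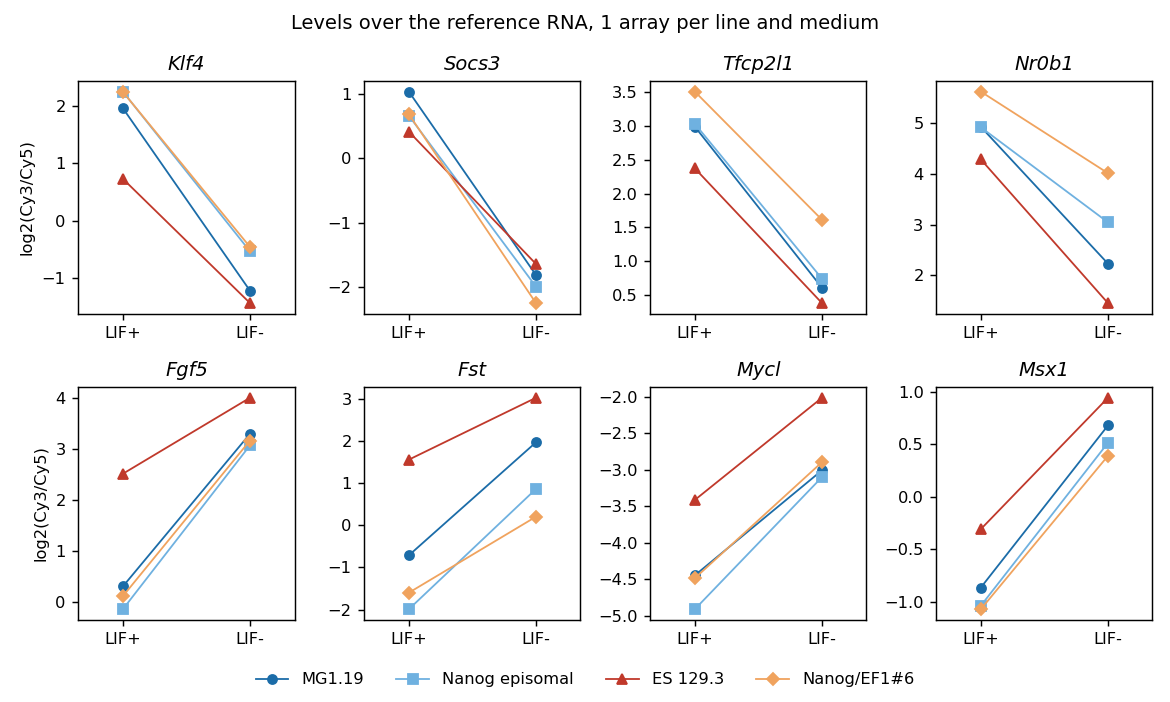
Levels of 8 genes as log2(Cy3/Cy5) with LIF and without LIF, 1 point per array and 1 line per cell line, without error bars since each point is 1 array. The upper row (Klf4, Socs3, Tfcp2l1 and Nr0b1) falls and the lower row (Fgf5, Fst, Mycl and Msx1) rises in each of the 4 lines, and ES 129.3 starts highest in all genes of the lower row, at 2.51 for Fgf5.

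Of 20 genes listed as STAT3 targets in ES cells 19 were measured. Of the 19, 7 fell and 1 rose, against 0.287% and 0.122% of all features. Besides Klf4, Socs3 and Tfcp2l1, the genes that fell were Icam1, Gbx2, Klf5 and Pim3, and the gene that rose was Jun. Icam1, an adhesion molecule of the immunoglobulin family, had levels of 1.33, 1.89, 1.07 and 2.40 with LIF in MG1.19, Nanog episomal, ES 129.3 and Nanog/EF1#6, against 0.03, 0.01, -0.03 and 1.02 without LIF. Each LIF- array except that of Nanog/EF1#6 was near 0, and the groups did not overlap. Icam1 changed by -1.42 on the log2 scale (2.67-fold, adjusted p = 0.034, limma). The homeobox factor Gbx2 fell 2.16-fold, Klf5, a relative of Klf4, fell 1.91-fold and the kinase gene Pim3 fell 1.65-fold. Jun, an AP-1 factor, rose 1.61-fold. Other genes of the list did not pass the test, among them the AP-1 genes Fos (0.01) and Junb (-0.24), the survival gene Mcl1 (0.32), Myc (0.39), Pim1 (0.16) and Sgk1 (-0.65). The median difference of the list was -0.15, and that of all features was 0.006.

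Of the pathway from LIF to STAT3, Socs3 changed. Of 28 listed components 23 were measured, and Socs3 was the 1 that passed the test, where 0.287% of all features fell. The LIF receptor gene Lifr differed by -0.17, the kinases Jak1, Jak2 and Tyk2 by 0.06, -0.12 and -0.54, and the phosphatase gene Ptpn11 by 0.39, none of them called. A second, dimmer probe of Ptpn11 differed by -0.21. Other inhibitors of the SOCS family also did not pass, with 0.46 for Socs1 and -0.15 for Socs2. The median of the 23 was -0.08. No probe was named for Stat3 or for the gp130 gene Il6st, so they were not analysed here.

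Of 35 pluripotency genes 34 were measured, and the median difference was -0.47. Of the 34, 7 fell and none rose, against 0.287% and 0.122% of all features. The 7 were Klf4, Klf5 and Tfcp2l1, which are also in the list of STAT3 targets, and Nr0b1, Tcl1, Spp1 and Eras. In all, 17 of the 34 were lower in all 4 lines and none was higher in all 4, whereas 10.2% and 12.9% of all features were so. For 9 of the 34 the gene name came from the tables of the study, which hold genes that responded to its treatments, and of all genes named in that way 1.81% fell and 0.329% rose, against 0.439% and 0.248% of those named by their own accession.

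Nr0b1 encodes Dax1, an orphan nuclear receptor of ES cells. Its levels were 4.93, 4.92, 4.29 and 5.62 with LIF in MG1.19, Nanog episomal, ES 129.3 and Nanog/EF1#6, and 2.23, 3.05, 1.45 and 4.01 without LIF. The groups did not overlap, although the LIF- level of Nanog/EF1#6 came near the LIF+ level of ES 129.3. Nr0b1 fell 4.77-fold (SE 0.23 and SD over the lines 0.60 on the log2 scale, adjusted p = 0.0389, limma). Tcl1, a coactivator of Akt, fell 3.15-fold and Eras, a constitutively active Ras protein of ES cells, fell 2.24-fold. Spp1, which encodes osteopontin, had levels of -4.21, -4.35, -3.86 and -2.79 with LIF and -6.22, -5.55, -5.34 and -4.43 without LIF. The groups came close without overlapping, since Nanog/EF1#6 without LIF lay just below Nanog episomal with LIF. Spp1 changed by -1.59 on average (adjusted p = 0.0312, limma).

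The core factors did not pass the test. Pou5f1 levels were 2.14, 2.81, 2.16 and 2.77 with LIF and 2.87, 2.14, 2.79 and 2.27 without LIF, so the groups overlapped. The mean difference was 0.05 with an SE of 0.28 and an SD over the lines of 0.74 (adjusted p = 0.967, limma). Nanog levels were 1.91, 1.28, 1.61 and 2.48 with LIF and 1.93, 1.47, 1.82 and 2.00 without LIF, a mean difference of -0.01. Sox2 differed by -0.34 and Esrrb by -0.16. Zfp42, which encodes the ES marker Rex1, was lower in all 4 lines, with a mean difference of -0.69 ± 0.27 (SD, n = 4 lines). This difference did not pass the test (adjusted p = 0.0715, limma). It ran from -2.082 to -0.36 across the alternatives, and Zfp42 was called in 1 of them. The Cy5 reference signal of the Zfp42 probe also differed between the media, by -1.36 against -2.04 for Cy3, whereas the Cy5 differences of the other genes described by name were -0.36 to 0.52. Further genes that were lower in all 4 lines and not called were Tbx3 (-1.47), Fbxo15 (-1.51), Nr5a2 (-0.63) and Dppa4 (-0.50).

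The 2-fold list also held genes outside these groups. Mymx, which encodes the muscle fusion peptide myomixer, was the second largest fall, with levels of 3.99, 4.36, 2.78 and 4.30 with LIF and 0.95, 1.56, 0.40 and 1.97 without LIF in MG1.19, Nanog episomal, ES 129.3 and Nanog/EF1#6. The groups did not overlap and the mean change was 6.22-fold (adjusted p = 0.0123, limma). Cdyl2, a chromodomain protein gene, fell 4.76-fold by the probe used, and a second probe of like brightness differed by -0.15. Lrrc34, a nucleolar protein gene of pluripotent cells, fell 4.19-fold, and Khdc3, which encodes the oocyte and ES cell protein Filia, fell 3.81-fold. Hmces, which protects abasic sites in single-stranded DNA, fell 2.98-fold with levels of 1.92, 1.77, 1.59 and 1.38 with LIF and 0.31, 0.14, 0.24 and -0.34 without LIF. Its SD over the lines was 0.16, so the 4 lines responded almost alike. Myo1f, a myosin of blood cells, fell 3.97-fold and was far higher with LIF in Nanog/EF1#6 (2.50) than in the other lines (-0.36 to -0.02).

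Smaller falls included chromatin genes. Tet2, which oxidises 5-methylcytosine, fell 2.33-fold and was the gene of the DNA methylation list that passed the test, of 11 measured. The median Cy3 signal of Tet2 without LIF was 463, near the negative controls, and its difference ran from -1.863 to -0.415 across the alternatives. Tet1 differed by -0.64 and Dnmt3b by 0.83, neither called. Eed and Mtf2, subunits of polycomb repressive complex PRC2, fell 1.91-fold and 1.67-fold, and Zfp296 and Sox15, transcription factors expressed in ES cells, fell 1.99-fold and 1.56-fold. These 4 genes are in no list and were picked from the called genes after their values were seen. Of 16 measured p53 and stress genes 1 fell, the thioredoxin inhibitor Txnip (1.67-fold). Of 14 neural genes 1 fell, Tubb3 (1.9-fold), the neuronal beta-tubulin. Beside these counts and that of the DNA methylation list, 0.287% of all features fell. Nefl, a neurofilament gene in no list, rose 1.9-fold (adjusted p = 0.0486, limma).

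**Figure D2:**
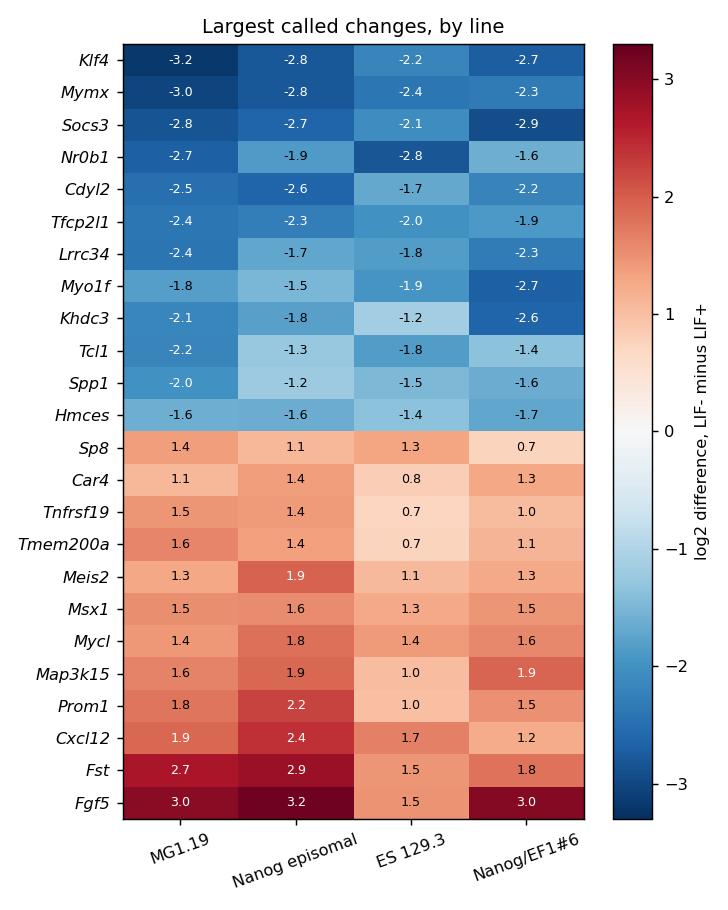
Log2 difference, LIF- minus LIF+, of the called genes with the largest mean changes (rows) in each of the 4 lines (columns), with the value printed in each cell and coloured from blue (lower without LIF) to red (higher). Every cell of a row has the same sign, and the values of Klf4 run from -3.2 in MG1.19 to -2.2 in ES 129.3.

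Fgf5, the growth factor of the post-implantation epiblast, showed the largest rise. Its levels were 0.31, -0.14, 2.51 and 0.12 with LIF in MG1.19, Nanog episomal, ES 129.3 and Nanog/EF1#6, and 3.29, 3.07, 4.00 and 3.16 without LIF. The groups did not overlap, and the LIF+ level of ES 129.3 was above those of the other lines, so that its rise was the smallest, at 1.49. The mean rise was 6.4-fold (SE 0.3 and SD over the lines 0.80 on the log2 scale, adjusted p = 0.0422, limma). Its median Cy3 signal with LIF was 437, near the negative controls, and the size of the rise was 1.5 to 3.19 on the log2 scale across all alternatives run. The call of Fgf5 was lost with a normexp offset of 0 (adjusted p = 0.12), with the processed signals of the scanner software (adjusted p = 0.077) and with the authors' table (adjusted p = 0.079, all limma). A second, dimmer Fgf5 probe differed by 0.71.

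Fst, which encodes follistatin, the secreted inhibitor of activin, had levels of -0.71, -1.99, 1.56 and -1.60 with LIF and 1.97, 0.86, 3.03 and 0.20 without LIF. The groups overlapped because ES 129.3 with LIF was higher than 2 of the lines without LIF, while each line rose, by 2.20 on average (4.6-fold, adjusted p = 0.0428, limma). A second Fst probe differed by 1.07. Mycl, a member of the Myc family, had levels of -4.45, -4.91, -3.41 and -4.48 with LIF and -3.01, -3.10, -2.01 and -2.89 without LIF. The groups did not overlap, and Mycl rose 2.95-fold with an SE of 0.08 (adjusted p = 0.0123, limma).

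Msx1, a homeobox gene that BMP signals switch on, rose by nearly the same amount in every line. Its levels were -0.87, -1.04, -0.31 and -1.07 with LIF and 0.68, 0.51, 0.94 and 0.39 without LIF, in the same order of lines. The groups did not overlap, and the mean rise of 2.73-fold had an SD of 0.14 over the lines on the log2 scale (adjusted p = 0.00945, limma). The chemokine gene Cxcl12 rose 3.48-fold, the stem cell surface protein gene Prom1 3.09-fold, the kinase gene Map3k15 3.06-fold and the homeobox gene Meis2 2.62-fold. A second, dim probe of Prom1 differed by 0.02. Further genes that rose were the TNF receptor family member Tnfrsf19 (2.23-fold), the carbonic anhydrase gene Car4 (2.2-fold), the zinc finger gene Sp8 (2.19-fold) and the RNA-binding factor gene Lin28a (1.7-fold), the last of them in no list. Median Cy3 signals with LIF were 464 for Meis2 and 440 for Tnfrsf19, near the negative controls. Across the alternatives, the difference ran from 0.49 to 2.01 for Meis2 and from 0.38 to 1.75 for Tnfrsf19. It ran from 0.818 to 2.215 for Cxcl12, from 0.824 to 2.004 for Prom1 and from 0.747 to 1.709 for Msx1. Of 19 alternatives, Prom1 lost its call in 14, Cxcl12 in 10 and Msx1 in 7.

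Of 20 genes listed for the primed epiblast 19 were measured, 2 rose, Fgf5 and the Wnt effector Lef1 (1.5-fold), and none fell. Of all features, 0.122% rose and 0.287% fell. Lef1 had a median Cy3 signal of 425 with LIF, within the range of the negative controls. Its mean difference was 0.59, or 0.12 without background subtraction, where it was not called (adjusted p = 0.124, limma), and 1.56 with a normexp offset of 0. In all, 11 of the 19 were higher in all 4 lines and 2 were lower in all 4, against 12.9% and 10.2% of all features. The median difference of the list was 0.55. The list medians were 0.56 in MG1.19, 0.61 in Nanog episomal, 0.24 in ES 129.3 and 0.74 in Nanog/EF1#6. Several members had large mean differences that varied too much between the lines to pass. The zinc finger gene Sall2 differed by 1.71, Pou3f1, the Oct6 gene, by 1.53 and Otx2, a head organiser and epiblast factor, by 1.42, with an adjusted p of 0.0818 for Otx2. Otx2 was nonetheless higher without LIF in each line, with levels of 1.80, 0.94, 2.19 and 1.12 with LIF and 2.63, 2.94, 3.10 and 3.07 without LIF, and the groups did not overlap.

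**Figure D3:**
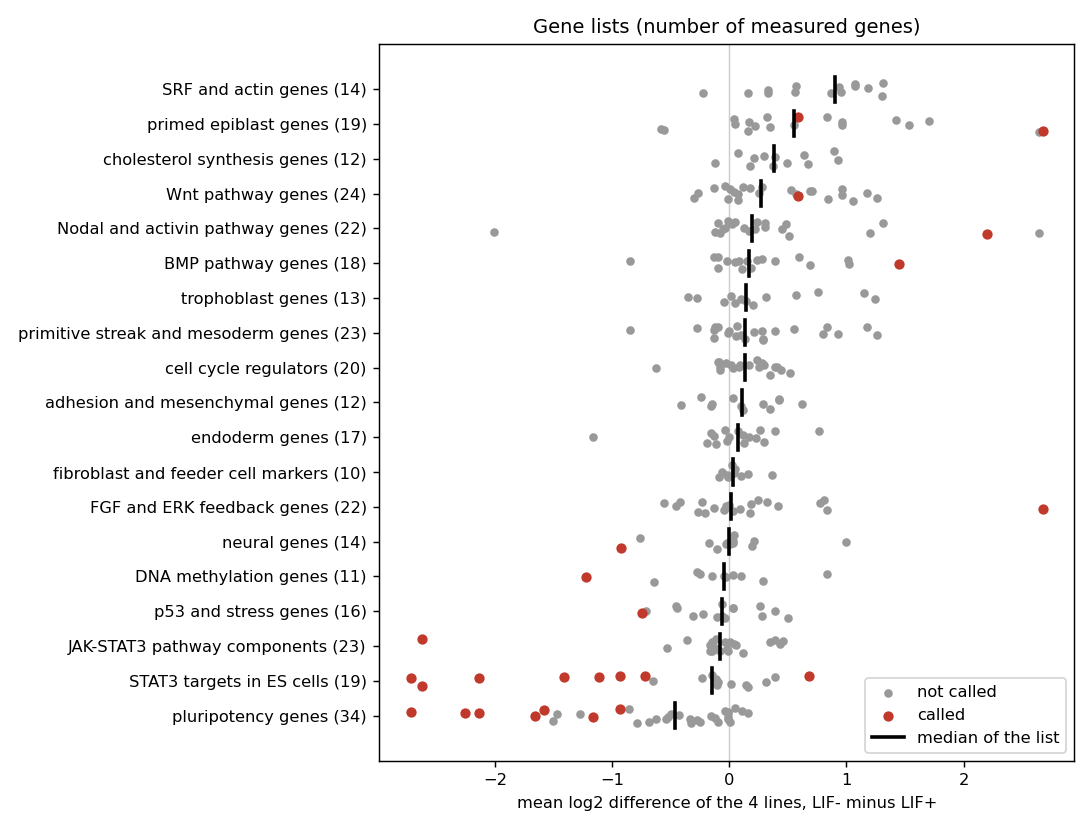
Mean log2 difference of the 4 lines, LIF- minus LIF+, for each measured gene of 19 gene lists (rows, with the number of genes measured), where red points passed the test, grey points did not, and the black bar is the median of the list. The list medians run from -0.47 for pluripotency genes to 0.90 for SRF and actin genes, and the calls lie mostly in the STAT3 target and pluripotency lists.

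The signalling pathways that guide the exit from pluripotency contributed single genes, each of which rose, as did 0.122% of all features. Of 22 measured FGF and ERK feedback genes Fgf5 rose, and the phosphatase gene Dusp6 (0.81) and the immediate early gene Egr1 (-0.42) did not pass. A second probe of Dusp6 differed by -0.11. Of 22 Nodal and activin pathway genes Fst rose, while the Nodal gene itself differed by 0.21, its inhibitor Lefty1 by 1.20 and the activin subunit gene Inhbb by -2.01 (adjusted p = 0.0833, limma). Of 18 BMP pathway genes Msx1 rose, and the BMP targets Id2 (1.02) and Id3 (1.01) and the ligand gene Bmp4 (-0.85) did not pass. Of 24 Wnt pathway genes Lef1 rose, and the median was 0.27. In all 4 lines, 12 of the 24 were higher and 1 was lower, against 12.9% and 10.2% of all features. The ligand genes Wnt3 (1.26) and Wnt8a (0.96) and the receptor gene Fzd2 (1.05) were higher in all 4 lines without passing, and the common target Axin2 differed by 0.04.

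Of the listed genes of the germ layers, Tubb3 was the 1 that passed the test, where 0.287% of all features fell and 0.122% rose. Of 23 measured primitive streak and mesoderm genes 12 were higher and 2 lower in all 4 lines, against 12.9% and 10.2% of all features. The median of these 23 genes was 0.14. The streak gene T (brachyury) differed by 0.92, Gsc by 0.80, Fgf8 by 0.84 and Mixl1 by -0.10. The median was 0.07 over 17 endoderm genes, with -0.04 for Gata6, 0.29 for Sox17 and -1.16 for the laminin gene Lama1. It was -0.01 over 14 neural genes, whose differences ran from -0.93 to 0.99, with 0.00 for Sox1 and -0.18 for Pax6. Of the 14, 4 were higher and 2 lower in all 4 lines, against 12.9% and 10.2% of all features. The median was 0.14 over 13 trophoblast genes, with -0.28 for Cdx2 and 1.15 for Gata3.

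In other lists no gene was called. The 14 genes of serum response factor (SRF) and actin had the highest median of the lists, 0.90. Of the 14, 10 were higher in all 4 lines, against 12.9% of all features. The medians of the 14 were 0.61 in MG1.19, 1.27 in Nanog episomal, 0.07 in ES 129.3 and 1.08 in Nanog/EF1#6, so ES 129.3 stood apart. The calponin gene Cnn1 and the matrix gene Thbs1 both differed by 1.31, the myosin light chain gene Myl9 by 0.95 and the tropomyosin gene Tpm1 by 1.07. Of 12 measured genes of cholesterol synthesis 10 were higher in all 4 lines and none was lower, against 12.9% and 10.2% of all features. The median of these 12 genes was 0.38, with differences of 0.93 for Sqle and 0.90 for Insig1. The 20 cell cycle regulators had a median of 0.13, with -0.63 for Ccnd3 and 0.52 for Ccnd2, and the 12 adhesion and mesenchymal genes had a median of 0.11, with 0.12 for E-cadherin (Cdh1) and 0.34 for N-cadherin (Cdh2). Over all 307 listed genes measured of 336, 14 fell and 5 rose, against 0.287% and 0.122% of all features.

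The size of the response differed between the lines. Changes of at least 2-fold were counted for 214 features lower and 193 higher in MG1.19, 563 and 662 in Nanog episomal, 78 and 49 in ES 129.3, and 150 and 189 in Nanog/EF1#6. With 1 array per medium these counts have no replicate check, and they follow the spread of all differences, whose SD was 0.25, 0.39, 0.19 and 0.24 in the same order. Across 35168 features above the negative controls, the differences of 2 lines, which share no array, correlated with a Pearson r of 0.216 (Nanog episomal and ES 129.3) to 0.613 (MG1.19 and Nanog/EF1#6). Features are not independent replicates, and the arrays of the lines that were extracted on the same day share that day.

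ES 129.3 had the smallest of the 4 differences for 47 of the 108 features that fell and for 32 of the 46 that rose. It also stood apart before withdrawal. With LIF, its level was the lowest of the 4 lines for 82 of the 108 that fell (75.9%) and the highest for 42 of the 46 that rose (91.3%), and over all features the shares were 22.1% and 29.5%. Without LIF it was still the lowest line for 67 of the 108 (62%) and the highest for 39 of the 46 (84.8%), against 23.5% and 25.4% of all features. Its median deviation from the mean of the 4 lines with LIF was -0.43 for features that fell and 0.63 for those that rose. Nanog/EF1#6 had the opposite order among the features that fell, being the highest line for 79 of them with LIF (73.1%) and for 84 without LIF (77.8%), against 24.4% and 28.8% of all features. Nanog/EF1#6 and ES 129.3 share the 129SvEv-Tac strain. Passage is given only for MG1.19 and ES 129.3, so passage and line cannot be told apart in these arrays.

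**Figure D4:**
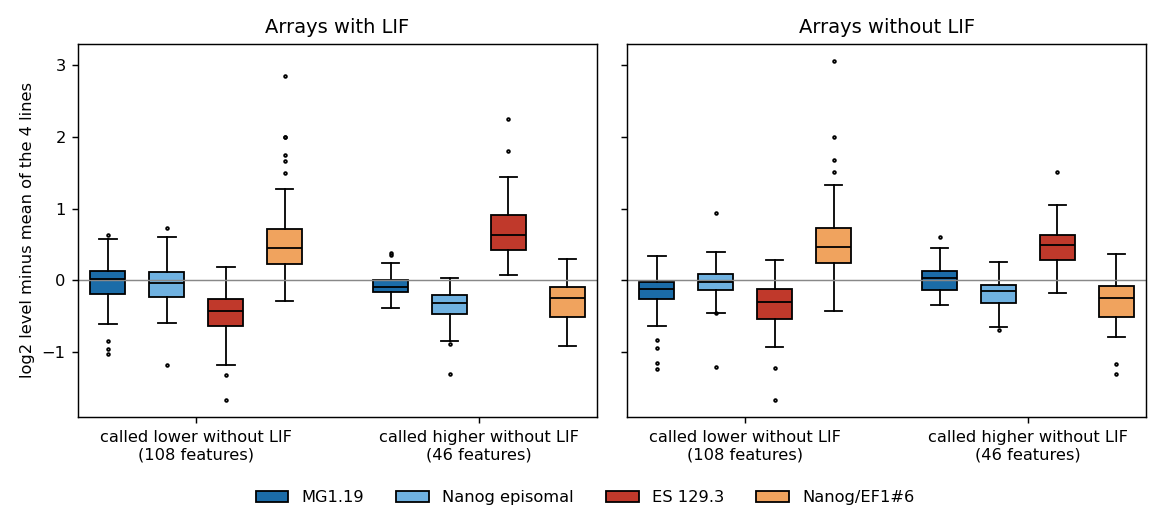
Log2 level of each called feature minus the mean of the 4 lines in the same medium, with LIF (left) and without LIF (right), as boxes (median and quartiles, whiskers to 1.5 times the box height) coloured by line. Among features that fell, ES 129.3 lies below 0 and Nanog/EF1#6 above it, and among features that rose ES 129.3 lies above 0, with medians of -0.43, 0.45 and 0.63 with LIF.

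Whether the Nanog vectors altered the response to LIF withdrawal was tested as the difference between the change in the 2 clones and that in MG1.19 and ES 129.3, the lines without a vector. As ES 129.3 is matched by strain alone, a difference between the groups need not be that between a clone and its parent. No feature was called with limma, and 2327 (6.19%) had an unadjusted p under 0.05. The changes of Pou5f1 were nevertheless of opposite direction, at 0.73 in MG1.19 and 0.63 in ES 129.3 against -0.68 in Nanog episomal and -0.50 in Nanog/EF1#6. The difference between the clones and the lines without a vector was -1.27 (adjusted p = 0.585, limma). Gldc, which encodes a subunit of the glycine cleavage system, showed the reverse, with -0.37 and -0.63 in the lines without a vector against 1.00 and 0.93 in the clones. Otx2 differed by 0.83 and 0.91 in the lines without a vector and by 2.00 and 1.95 in the clones. Gata3, a trophoblast factor gene, differed by 0.51 in both lines without a vector and by 1.70 in Nanog episomal and 1.87 in Nanog/EF1#6. None of these differences passed the correction over all features. Gldc, Otx2 and Gata3 were chosen for their small unadjusted p, and Pou5f1 was named beforehand as an ES cell marker.

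The same test between the lines of 129Sv and those of 129SvEv-Tac also called no feature with limma, and 1401 (3.73%) had an unadjusted p under 0.05. Sp5, a target of Wnt signals, was among those with the smallest p. Its differences were 1.71 in MG1.19 and 2.11 in Nanog episomal against 0.32 in ES 129.3 and 0.56 in Nanog/EF1#6, and the difference between the backgrounds was 1.47 (adjusted p = 0.972, limma). Strain and day of image extraction cannot be told apart in this comparison.

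**Figure D5:**
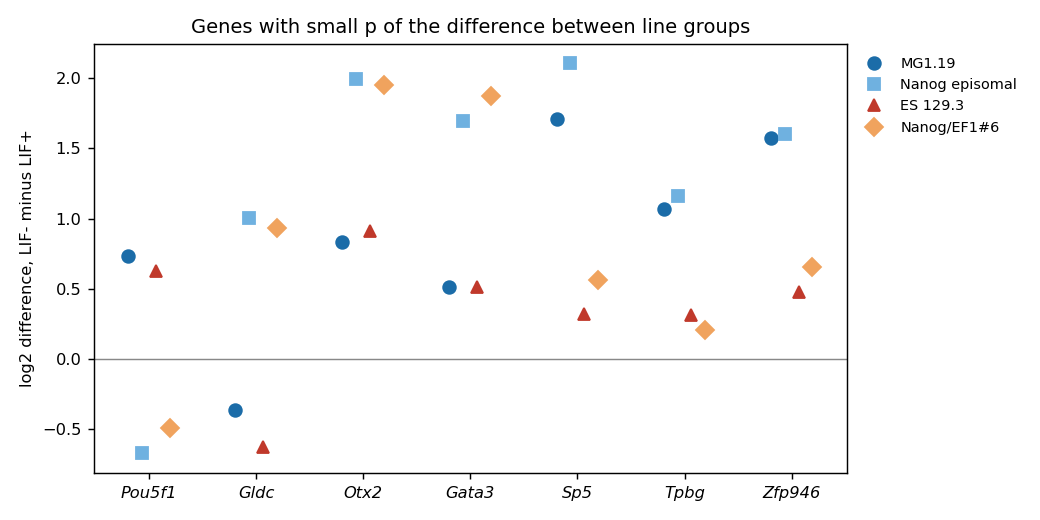
Log2 difference, LIF- minus LIF+, of 7 genes in the 4 lines, 1 point per line without error bars. Pou5f1 lies above 0 in MG1.19 (0.73) and ES 129.3 (0.63) and below 0 in the 2 Nanog clones (-0.68 and -0.50), and Sp5 lies higher in the 2 lines of 129Sv (1.71 and 2.11).

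Cells of the same lines given RA kept LIF in the medium. The LIF+RA and the LIF- values below are differences from the same LIF+ arrays and are set side by side without a test. Socs3 differed by 0.03 ± 0.28 (SD, n = 4 lines) with RA against -2.62 without LIF, and Spp1 by 0.40 against -1.59. Klf4 differed by -0.91 with RA against -2.72, Tfcp2l1 by -0.57 against -2.14 and Icam1 by -0.36 against -1.42. Nr0b1 was lower in both media, at -2.78 with RA and -2.25 without LIF, as were Tcl1 (-2.08 and -1.66), Lrrc34 (-2.34 and -2.07) and Hmces (-1.64 and -1.58). Fgf5 differed by -0.25 ± 1.12 (SD, n = 4 lines) with RA against 2.68 without LIF, and Otx2 by -1.40 against 1.42. Meis2, a cofactor of Hox proteins that RA induces, differed by 2.91 with RA against 1.39.

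The direct comparison of LIF+RA with LIF- arrays does not use the LIF+ arrays. Of 37606 features tested with limma, 646 were lower with RA (1.72%) and 1492 were higher (3.97%). Socs3 was higher with RA than without LIF by 2.65 (adjusted p = 0.000849), Spp1 by 1.99 (adjusted p = 0.00123), Klf4 by 1.81 (adjusted p = 0.0016), Tfcp2l1 by 1.56 (adjusted p = 0.001) and Icam1 by 1.05 (adjusted p = 0.00116). Fgf5 was lower with RA by 2.92 (adjusted p = 0.001) and Otx2 by 2.83 (adjusted p = 0.000353). For Nr0b1, Tcl1, Lrrc34 and Hmces the difference between the 2 media did not pass the test, with adjusted p of 0.169, 0.0812, 0.303 and 0.418.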

How the data were processed

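Per the labels, RNA of 40 samples was hybridised to Agilent oligonucleotide arrays, and the 8 LIF+ and LIF- arrays of the 4 lines (44K design) were used here, with the 4 LIF+RA arrays beside them. The authors scanned and quantified the arrays with Agilent Feature Extraction, and the deposited scanner files hold linear intensity values per spot. A deposited normalized table holds log10 values whose exact scaling is not given in the sources used here. Its columns correlated with the scanner log2 Cy3 signal at r = 0.904 to 0.938, and it served as an alternative. In that table, 4 per-sample columns that matched no label were not used.

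Mean signals and median backgrounds were corrected with normexp (offset 50), outlier spots were left out, saturated spots were kept, dyes were balanced by loess within arrays, and spots of a probe were averaged. The brightest probe stood for a gene. Of 41006 probes, 15294 were named by their own accession and 1963 through the oligonucleotide tables of the study, which hold genes that responded there, and 23749 stayed unnamed. Differences were fitted with limma 3.58.1 in R 4.3.3 with terms for line and medium, which leaves 3 residual degrees of freedom. Differences between lines used the same fit with an interaction, and p-values were adjusted by Benjamini-Hochberg over all features. The lines pair the arrays, and residuals of the 2 arrays of a line correlated at 0.214 to 0.766. An exact sign-flip test over 4 pairs cannot go below p = 0.125 and was not used. The number of arrays limits the precision.

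Genes named in the text were the markers Socs3, Klf4 and Fgf5 and the ES cell markers Pou5f1, Sox2, Nanog and Zfp42. To these were added the 12 called genes with the largest fall and the 12 with the largest rise. Up to 4 called members of each gene list and the 4 genes with the smallest p of each interaction were also named. Values of other list members, most of which did not pass the test, were added after they were seen, and some items are not reported here. The members and lists were chosen with earlier results of these data known. The fits and the rule for calls were tested on simulated data. Promoter windows come from RefSeq (GRCm38.p6). Alternatives covered the background correction, the normalization, the authors' table, Cy3 alone, a regression on a Cy5 bleaching index, a filter on dim probes, the mean of all probes of a gene, the F test of the study's methods, the line and day as blocks, all 12 arrays and each line left out.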

Additional observations from a re-analysis of the deposited data

Results flagged for a closer look

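Among 123 groups of 4 values checked for 1 value far from the other three, 11 were picked out, and chance picks about 1 in 20. ES 129.3 held 9 of the 11. With LIF, its levels on the log2 scale were 2.51 for Fgf5 (other lines -0.14 to 0.31), 0.80 for the transmembrane gene Tmem200a (-1 to -0.90), 0.79 for Car4 (0.20 to 0.24), 0.20 for Lef1 (-0.27 to -0.19), 2.71 for Tubb3 (3.13 to 3.17) and -1.23 for Txnip (-0.89 to -0.84). Without LIF its level of Lrrc34 was 1.40 (2.63 to 2.68). Its difference between the media was 1.49 for Fgf5 (2.98 to 3.20) and -1.09 for Zfp42 (-0.57 to -0.52). Nanog/EF1#6 held the other two, with a level of 2.50 for Myo1f with LIF (-0.36 to -0.02) and of 1.02 for Icam1 without LIF (-0.03 to 0.03).

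The change without LIF went in opposite directions in the 2 Nanog clones and the 2 lines without a vector (MG1.19 and ES 129.3) for 2 of the named genes. The difference of the clones minus that of the lines without a vector was 1.47 for Gldc and -1.27 for Pou5f1. Tested as an interaction in limma, both had an adjusted p of 0.585, so neither passed the correction over all features.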

How the results depend on the processing

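All 154 called features kept their direction under every alternative, but many lost their call. Where only the lines, the block or the test changed, the direction was fixed in advance by the same sign in all 4 lines. Of the 41 genes named by the rule, Gldc (-0.02 to 0.52), Pou5f1 (-0.18 to 0.29) and Nanog (-0.13 to 0.14) changed sign between alternatives. None of these was called in any of them. Otx2 and Zfp42, not called in the main fit, were each called in 1 alternative. Of the 29 called among the 41, 24 were not called without background subtraction, 15 with a normexp offset of 0, 7 each with the scanner software's signals and the authors' table, 6 with Cy3 alone, 1 with the mean of all probes, 3 with all 12 arrays, 12 without Nanog episomal, 5 without ES 129.3, and 28 with no replicate block or the day as the block. None of the 29 was called without MG1.19, without Nanog/EF1#6, within 1 day or by the F test. The number of calls (154 in all, 108 lower, 46 higher, 19 among listed genes) moved likewise. It was 10 (7 lower, 3 higher, 4 listed) without background subtraction, 51 (42, 9 and 8) with a normexp offset of 0, 233 (128 lower, 105 higher) with scaling between arrays, and 352 (189, 163 and 32) with all 12 arrays in the fit. A regression on Cy5 bleaching raised the higher calls to 72. With each line left out in turn it was 0 to 346 (0 to 143 lower, 0 to 203 higher, 0 to 33 listed). The fit with no replicate block, which ignores the pairing by line, called 5 lower, 0 higher and 2 listed (2747 at an unadjusted p under 0.05). The day of image extraction as the block gave 2 lower, 0 higher and 2 listed. The F test of the study's methods gave 0 throughout (1386 at an unadjusted p under 0.05), as did limma within each day (chosen after seeing the data). Features at least 1.5-fold lower or higher in every line (106 and 66) and 2-fold (20 and 10) became 44, 16, 10 and 3 without background subtraction. With offset 0, 111 were 1.5-fold higher and 38 and 21 passed 2-fold. These were 115, 32 and 21 with the processed signals of the scanner software and 117, 32 and 21 with the authors' table. Scaling gave 101 that were 1.5-fold higher and 16 that were 2-fold higher, and Cy3 alone gave 31 that were 2-fold lower. The cause of these shifts was not tested. The interactions called 0 features in limma under every alternative. The 4 lines with 1 array per medium limit the tests, and low signals near the negative controls limit the size of changes such as that of Fgf5.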

Other observations

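Called genes outside the gene lists are given here by what their products are known to do. They were picked after their values were seen, so the order describes them and tests nothing. Among those that fell without LIF were genes of the cell surface and its attachments. Itgb7, an integrin beta subunit, fell 2.36-fold with an adjusted p of 0.00945 in limma, Fblim1, a filamin-binding adaptor of integrin contacts, fell 2.7-fold and Nid1, the basement membrane protein nidogen, fell 2.08-fold. Slc29a1, a nucleoside transporter, fell 2.09-fold and Cltb, a clathrin light chain, fell 2.31-fold. Genes known from the germ line fell as well. Stra8, which germ cells use to enter meiosis, fell 1.75-fold, Syce1, a component of the synaptonemal complex, fell 1.91-fold and Hsf2bp, which acts in meiotic recombination, fell 2.16-fold. Enzymes among the genes that fell were the lysosomal mannosidase gene Manba (2.54-fold), the urate pathway gene Urah (2.39-fold), the glutathione transferase gene Gsta3 (2.37-fold), the phosphofructokinase gene Pfkp (1.75-fold) and Tigar (1.51-fold), a regulator of glycolysis. Platr26 and Platr4, long noncoding RNAs named for their link to pluripotency, fell 2.06-fold and 1.64-fold.

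Among the genes that rose without LIF, several encode receptors and their partners. Ror2, a receptor for Wnt5a, rose 1.79-fold, Il17rd, an inhibitor of FGF signals also called Sef, rose 1.85-fold, the growth hormone receptor gene Ghr rose 1.59-fold and the lysophosphatidic acid receptor gene Lpar6 rose 1.78-fold. Genes of cell contacts also rose. Pcdh8, a protocadherin of the paraxial mesoderm, rose 1.9-fold with an adjusted p of 0.0228 in limma, Ocln, the tight junction protein occludin, rose 1.66-fold, Fras1, an extracellular matrix protein, rose 1.8-fold and the semaphorin gene Sema4c rose 2.17-fold. Amotl2, a binding partner of Yap, rose 1.58-fold. Its relative Amot, which was at least 2-fold higher in every line, did not pass the test (adjusted p = 0.0572, limma).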
